A study of Mus musculus with 12 samples.

Results

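The alpha-arrestins *Arrdc1*, *Arrdc2*, *Arrdc3* and *Arrdc4*, their relative *Txnip*, and the beta-arrestins *Arrb1* and *Arrb2* were described in bulk RNA-Seq of the W-20 bone marrow stromal cell (BMSC) line. These 7 genes were taken by symbol from the 56980 rows of the count matrix, through their Ensembl identifiers. They were chosen by gene family with the fold changes of these libraries already known, both for PTH and between the lines and for *Arrdc3* in particular, so their values are a description and their p-values are not independent evidence. All 7 passed the filter on low counts in both fits used here.

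W-20 is a mouse BMSC line that responds to parathyroid hormone (PTH). WT cells and Y428F cells received 50 nM PTH or vehicle (PBS) for 2 hours, with 3 libraries in each of the 4 groups. The libraries are called Y428F in their titles, whereas their genotype characteristic reads WT. The methods describe stable lines made by introducing Flag-tagged YAP plasmids that carry the Y428F change (tyrosine to phenylalanine), with or without a further S381A change, followed by selection of positive clones with puromycin, and the study's account of the RNA-Seq names the line with both changes, S381A/Y428F, as the one compared with WT cells, but also writes Y428F alone, as the library titles do. No library of cells given unmutated YAP was analysed here, so Y428F, S381A, the introduced plasmid and the selection of a clone cannot be told apart. Library totals ranged from 17127897 to 19057319 counts. The labels do not say that replicates came from separate cultures, so p-values measure the spread between these samples. Pairs of replicates spread wider than sampling of reads alone would give (chi-square divided by its degrees of freedom, 2.94 to 15.2). In bulk RNA, fewer cells of a type and less RNA per cell cannot be told apart.

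Alpha-arrestins are adaptors that recruit NEDD4-family ubiquitin ligases, through PPxY motifs, to membrane proteins that are to be internalized. TXNIP binds thioredoxin and restrains glucose uptake, and its gene is a well known target of the glucose-sensing factors MondoA and ChREBP. Beta-arrestins bind phosphorylated G protein-coupled receptors, the PTH receptor included, uncouple them from G proteins and link them to clathrin-coated pits.

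The stromal identity of the libraries was checked first. *Col1a2*, a fibrillar collagen gene of stromal cells, was the most abundant of 9 stromal markers, with 12828 ± 931.9 CPM (edgeR's count relative to the TMM-normalized library total, mean ± SD, n = 3) in WT cells with vehicle and 7744 ± 284.7 CPM in Y428F cells with vehicle. *Thy1* had 0 counts in every library. The summed stromal markers were lower in Y428F cells, at 18400 ± 676.6 CPM against 26672 ± 1713 CPM in WT cells with vehicle. *Col1a2*, *Col1a1* and *Vim* made up most of that sum, so it does not stand for each marker. *Lepr* was near the floor and went the other way, at 1.03 ± 0.0407 CPM in Y428F cells and 0.143 ± 0.108 CPM in WT cells with vehicle. Markers of other cell types stayed low, and the endothelial, blood and epithelial sets moved with the line. The 3 endothelial markers summed to 8.29 ± 0.781 CPM in Y428F cells and 0.882 ± 0.274 CPM in WT cells with vehicle, nearly all of it *Cdh5*, and the 5 blood markers to 3.38 ± 0.322 and 1.2 ± 0.239 CPM, mostly *Ptprc*. The 3 epithelial markers summed to 3.66 ± 0.771 and 0.624 ± 0.307 CPM, with *Krt8* the most abundant. The 3 adipocyte markers, at 0.178 ± 0.131 CPM in WT cells and 0.269 ± 0.102 CPM in Y428F cells with vehicle, lay within their spread. *Cd3e*, *Epcam*, *Adipoq* and *Sost* were at 0 in every group. The part of these differences in the values below was not tested.

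The sequence upstream of *Txnip*, *Arrdc2* and *Arrdc3*, the members with the largest changes with PTH, is shown with that of *Arrdc4*, the paralogue of *Txnip*, which was not called with PTH in either line. Each run is the 250 bases before the annotated 5′ end of the gene on GRCm39 (GENCODE vM39), read 5′ to 3′ on the gene's strand, with capitals at matches on either strand to CCAAT, the E-box CACGTG, the E-box variant CACGAG and the FOXO motif TGTTTAC. The windows lie at chr3:96465017-96465266 for *Txnip* (plus strand), chr8:71292365-71292614 for *Arrdc2* (minus strand), chr13:81031159-81031408 for *Arrdc3* (plus strand) and chr7:68399000-68399249 for *Arrdc4* (minus strand).
Txnip: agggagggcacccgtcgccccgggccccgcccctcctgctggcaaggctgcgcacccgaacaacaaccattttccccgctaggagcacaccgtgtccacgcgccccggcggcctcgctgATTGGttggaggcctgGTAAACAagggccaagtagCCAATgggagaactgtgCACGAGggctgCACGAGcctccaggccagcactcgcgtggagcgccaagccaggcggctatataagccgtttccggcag
Arrdc2: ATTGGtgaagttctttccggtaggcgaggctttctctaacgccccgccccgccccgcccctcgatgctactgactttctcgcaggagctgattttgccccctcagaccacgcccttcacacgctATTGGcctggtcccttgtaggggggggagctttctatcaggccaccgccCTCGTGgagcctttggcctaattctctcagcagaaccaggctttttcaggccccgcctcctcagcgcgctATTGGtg
Arrdc3: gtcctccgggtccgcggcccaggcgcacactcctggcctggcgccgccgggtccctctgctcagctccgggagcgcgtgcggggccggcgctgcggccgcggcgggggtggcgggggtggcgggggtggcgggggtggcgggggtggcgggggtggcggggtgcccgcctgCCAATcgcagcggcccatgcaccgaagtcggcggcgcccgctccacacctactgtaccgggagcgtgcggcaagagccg
Arrdc4: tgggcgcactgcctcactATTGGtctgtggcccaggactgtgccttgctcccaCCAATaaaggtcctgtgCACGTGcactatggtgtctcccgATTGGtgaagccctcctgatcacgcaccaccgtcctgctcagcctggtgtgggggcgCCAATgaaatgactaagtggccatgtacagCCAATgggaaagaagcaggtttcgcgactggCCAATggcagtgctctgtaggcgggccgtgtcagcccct

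*Txnip* held 2 CCAAT matches, 1 FOXO match and 2 CACGAG matches. *Arrdc2* held 3 CCAAT matches and 1 CACGAG match, *Arrdc3* 1 CCAAT match, and *Arrdc4* 6 CCAAT matches and 1 CACGTG match. Of the windows not printed, that of *Arrdc1* held 2 CACGAG matches, as many as *Txnip*, that of *Arrb2* 2 CCAAT matches, and that of *Arrb1* no match to any motif searched. Over 21631 promoters of the same length, 36.1% held CCAAT, 5.71% CACGTG, 2.98% TGTTTAC and 5.23% CACGAG. The variant CACGAG was added to the search after the *Txnip* sequence had been read, so its presence there was the reason for the search and not a result of it. The cyclic AMP response element TGACGTCA and its shorter form TGACG, found in 1.31% and 16.3% of promoters, the former containing the latter, had no match in any of the 7 windows, and neither did the TEAD motif GGAATG (12.4%). The window was also moved after the first matches were seen, so that it held no transcribed bases. Before the canonical transcript start, the window used first, *Arrb2* had 1 match to TGACG, which 18% of promoters held there, and the numbers of matches in the other members' windows were as given, except that *Arrb2* had 1 CCAAT match in place of 2. A match is a description of letters and not of a bound site.

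Levels were compared between genes per kilobase of exon. *Txnip* was the most abundant member in all 4 groups, with 72.2 ± 5.9 CPM per kb in WT cells with vehicle, 50.3 ± 3.77 with PTH, and 22.1 ± 0.317 and 10.9 ± 0.872 in Y428F cells with vehicle and PTH. *Txnip* made up 89.8% ± 0.929 (SD, n = 3) of the summed level per kb of the 5 alpha-arrestin genes in WT cells with vehicle and 67.4% ± 2.26 in Y428F cells with PTH. *Arrb1* came next with 5.3 ± 0.566 CPM per kb in WT cells with vehicle, before *Arrb2* with 4.31 ± 0.261, and *Arrdc4* was lowest with 0.663 ± 0.0637. *Arrdc1* and *Arrdc2*, at 2.16 ± 0.505 and 2.16 ± 0.151 CPM per kb, did not differ beyond their spread in WT cells with PTH. *Arrdc2* was above *Arrdc1* in WT cells with vehicle (3.18 ± 0.158 against 2.58 ± 0.201) and below it in Y428F cells with vehicle (2.52 ± 0.045 against 3.21 ± 0.323).

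**Figure D1:**
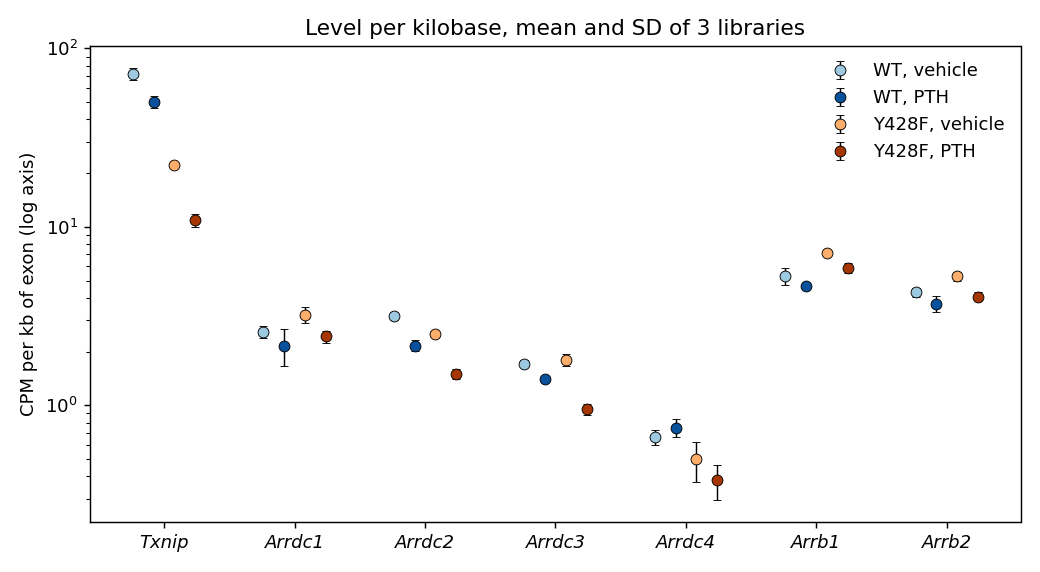
Level of each gene in CPM per kilobase of exon (log axis) in the 4 groups; points are means and bars SDs of 3 libraries. *Txnip* lies above the other 6 genes in every group, from 72.2 in WT cells with vehicle to 10.9 in Y428F cells with PTH, and *Arrdc4* lies below them.

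The first question was how the genes responded to PTH in each line. In WT cells, *Txnip* and *Arrdc2* fell, and in Y428F cells *Txnip*, *Arrdc3*, *Arrdc2*, *Arrb2* and *Arrb1* fell. No member was called higher in either line. Of all genes tested in WT cells, 4.91% fell and 6.88% rose at an adjusted p under 0.05, and in Y428F cells 5.78% fell and 6.61% rose. The median log2 fold change of the 7 genes was -0.25 in WT cells and -0.40 in Y428F cells, beside -0.015 and -0.007 over all genes tested. The members were chosen with these responses known, so nothing is read from the counts against those shares.

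*Txnip* (ENSMUSG00000038393.15, chr3:96465267-96469201) had 208.3, 244.8 and 233.4 CPM in the WT libraries with vehicle and 153.8, 151.2 and 173 CPM with PTH. In the Y428F libraries it had 71.1, 70 and 69.1 CPM with vehicle and 37.1, 31.7 and 35.2 CPM with PTH. The 4 groups did not overlap, and each library with PTH lay below every library of its line with vehicle. The log2 fold change with PTH was -0.51 ± 0.075 (SE) in WT cells (edgeR quasi-likelihood, Benjamini-Hochberg adjusted p = 0.000637) and -1.02 ± 0.076 in Y428F cells (edgeR, adjusted p = 2.05e-08), a fall to 0.7 and 0.495 of the level with vehicle. The antisense gene *Gm15441* overlaps *Txnip* and had 4 to 13 counts per library, beside 564 to 4349 for *Txnip*. The labels do not settle whether strand was used in counting, so reads of overlapping genes cannot be told apart.

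*Arrdc2* (ENSMUSG00000002910.12, chr8:71287770-71292364), an alpha-arrestin adaptor, had 10.7, 11.2 and 10.1 CPM in WT cells with vehicle and 6.66, 7.5 and 7.57 CPM with PTH. In Y428F cells it had 8.6, 8.49 and 8.3 CPM with vehicle and 4.71, 5.28 and 5.18 CPM with PTH. No libraries of the 4 groups overlapped. The log2 fold change was -0.55 ± 0.12 in WT cells (edgeR, adjusted p = 0.00766) and -0.74 ± 0.12 in Y428F cells (edgeR, adjusted p = 0.00018). Without the first WT library with PTH the WT value was -0.48 and was no longer called (edgeR, adjusted p = 0.0563).

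*Arrdc3* (ENSMUSG00000074794.11, chr13:81031409-81044161), known for directing internalized receptors to ubiquitination, had 15.1, 14.9 and 13.8 CPM in WT cells with vehicle and 12.1, 11.6 and 12.3 CPM with PTH. In Y428F cells it had 15.7, 16.4 and 14.1 CPM with vehicle and 8.6, 7.52 and 8.26 CPM with PTH. The vehicle groups of the 2 lines overlapped, and the groups with PTH lay apart from each other and from both. The log2 fold change was -0.28 ± 0.095 in WT cells, which was not called although the libraries did not overlap (edgeR, adjusted p = 0.0773), and -0.92 ± 0.1 in Y428F cells (edgeR, adjusted p = 2.78e-06). With library totals in place of TMM the WT value was -0.34 and was called (edgeR, adjusted p = 0.0399). *1700023H06Rik*, on the opposite strand, overlaps the gene and had 0 to 5 counts per library.

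The beta-arrestins moved less. *Arrb1* (ENSMUSG00000018909.16, chr7:99184470-99256620) had 60.9, 71.7 and 75.1 CPM in WT cells with vehicle and 63.1, 60.5 and 58.9 CPM with PTH, and the groups overlapped. In Y428F cells it had 92.5, 95.2 and 91.9 CPM with vehicle and 71.3, 80.2 and 79.2 CPM with PTH, which did not. Its log2 fold change was -0.18 ± 0.081 in WT cells (edgeR, adjusted p = 0.186) and -0.28 ± 0.069 in Y428F cells (edgeR, adjusted p = 0.0108). The WT value was -0.25 and called without the first WT library with vehicle (edgeR, adjusted p = 0.0273), and the Y428F value was -0.22 and not called without the first Y428F library with PTH (edgeR, adjusted p = 0.0529). *Arrb2* (ENSMUSG00000060216.16, chr11:70323381-70333488) had 20.9, 22.9 and 20.5 CPM in WT cells with vehicle and 20.5, 18.1 and 16.8 CPM with PTH. In Y428F cells it had 25.2, 28 and 25.7 CPM with vehicle and 19.5, 19.5 and 21.6 CPM with PTH. The groups did not overlap in either line, although the nearest WT libraries both round to 20.5 CPM. Its log2 fold change was -0.21 ± 0.093 in WT cells (edgeR, adjusted p = 0.179) and -0.38 ± 0.089 in Y428F cells (edgeR, adjusted p = 0.00676).

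*Arrdc1* and *Arrdc4* were not called with PTH in either line. *Arrdc1* (ENSMUSG00000026972.16, chr2:24815286-24825338), which takes part in the budding of vesicles from the plasma membrane, had 7.09, 6.31 and 7.35 CPM in WT cells with vehicle and 7.31, 4.74 and 5.3 CPM with PTH. It had 9.58, 8.34 and 7.92 CPM in Y428F cells with vehicle and 5.93, 6.9 and 6.72 CPM with PTH. The groups overlapped in WT cells, where the log2 fold change was -0.25 ± 0.17 (edgeR, adjusted p = 0.412), or -0.44 to -0.12 with 1 library left out. The groups did not overlap in Y428F cells, where the log2 fold change was -0.40 ± 0.15 (edgeR, adjusted p = 0.0818). With the 6 Y428F libraries alone it was -0.39 and called (edgeR, adjusted p = 0.0459), with library totals -0.44 and called (edgeR, adjusted p = 0.0497), and without the first WT library with PTH -0.39 and called (edgeR, adjusted p = 0.0491). *Arrdc4* (ENSMUSG00000042659.16, chr7:68386742-68398999), a paralogue of *Txnip* that is likewise a target of MondoA, had 26 to 63 counts per library. It had 3.23, 3.13 and 2.68 CPM in WT cells with vehicle and 2.95, 3.57 and 3.67 CPM with PTH. In Y428F cells it had 2.9, 1.77 and 2.13 CPM with vehicle and 2.16, 1.46 and 1.54 CPM with PTH. The treatments overlapped in both lines, and the log2 fold changes of 0.18 ± 0.2 and -0.39 ± 0.24 were not distinguishable from 0 at this depth (edgeR, adjusted p = 0.662 and 0.353). With 1 library left out, they ranged from 0.11 to 0.28 and from -0.59 to -0.17, none of them called.

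**Figure D2:**
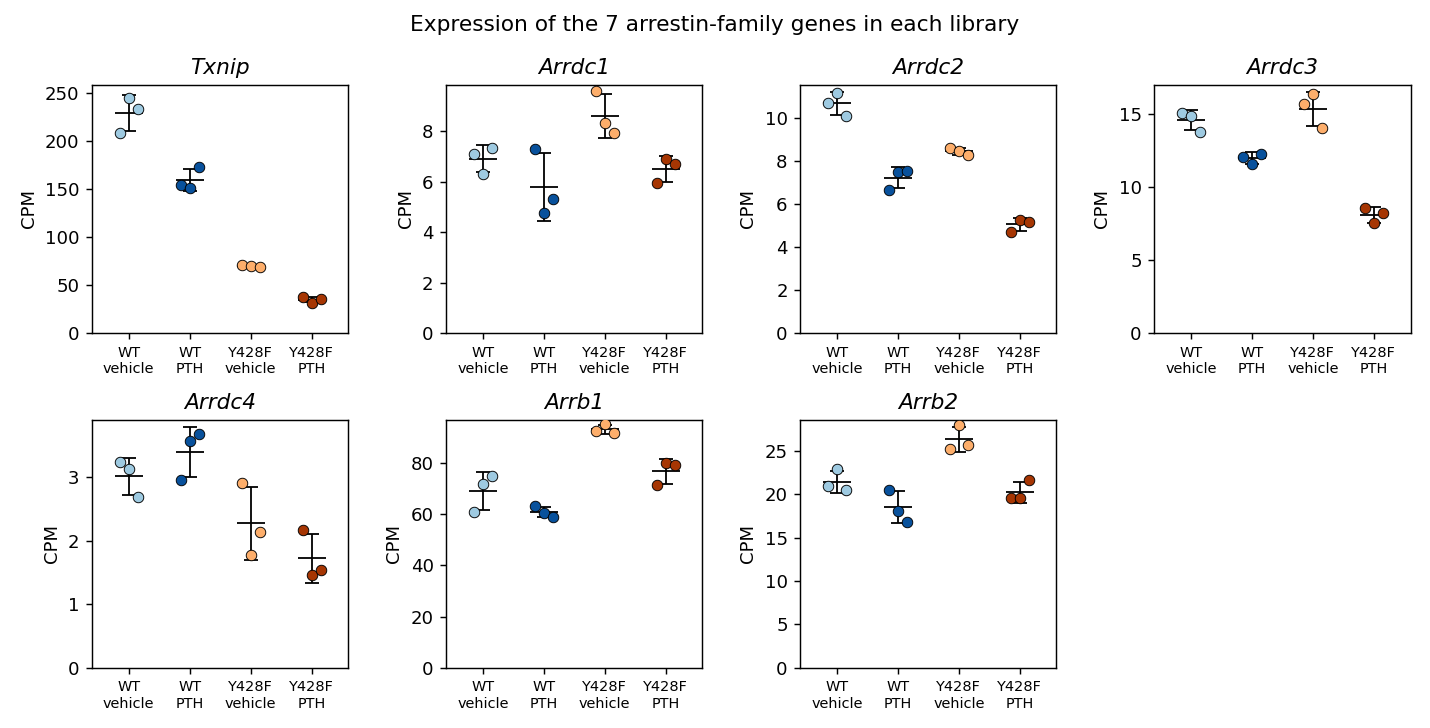
CPM of each gene in each library, by group, on axes that start at 0; points are single libraries, and the line and bars are the mean and SD of 3. *Txnip* falls from 208.3 to 244.8 CPM in WT cells with vehicle to 31.7 to 37.1 CPM in Y428F cells with PTH, and *Arrdc3* is lowest in Y428F cells with PTH, at 7.52 to 8.6 CPM.

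The second question was how the lines differed at the same treatment. With vehicle, *Txnip* and *Arrdc2* were lower and *Arrb1* and *Arrb2* higher in Y428F cells, and with PTH *Txnip*, *Arrdc2*, *Arrdc3* and *Arrdc4* were lower and *Arrb1* higher. The background was large here. Of all genes tested, 22.7% were lower and 22.4% higher in Y428F cells with vehicle, and 23% lower and 22.8% higher with PTH. The calls of 4 of the 7 members with vehicle and 5 with PTH stand beside those shares, and nothing is read from them. The median log2 difference of the 7 genes was 0.07 with vehicle and -0.52 with PTH, beside 0.012 and 0.019 over all genes tested. Comparisons that share a group of libraries are not independent of each other.

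*Txnip* was lower in Y428F cells by -1.71 ± 0.071 on the log2 scale with vehicle (edgeR, adjusted p = 7.4e-14) and by -2.20 ± 0.075 with PTH (edgeR, adjusted p = 4.34e-15), that is 3.27-fold and 4.6-fold lower. *Arrdc2* differed by -0.34 ± 0.11 with vehicle (edgeR, adjusted p = 0.0134) and by -0.52 ± 0.12 with PTH (edgeR, adjusted p = 0.00118). *Arrdc3* differed by 0.07 ± 0.093 with vehicle, where the lines overlapped (edgeR, adjusted p = 0.565), and by -0.56 ± 0.1 with PTH (edgeR, adjusted p = 0.000119). *Arrdc4* differed by -0.41 ± 0.23 with vehicle (edgeR, adjusted p = 0.149) and by -0.98 ± 0.23 with PTH (edgeR, adjusted p = 0.00167). *Arrb1* was higher by 0.43 ± 0.07 with vehicle (edgeR, adjusted p = 3.15e-05) and by 0.34 ± 0.071 with PTH (edgeR, adjusted p = 0.000514). *Arrb2* was higher by 0.30 ± 0.089 with vehicle (edgeR, adjusted p = 0.00918) and differed by 0.13 ± 0.092 with PTH (edgeR, adjusted p = 0.27). *Arrdc1* was not called, with 0.31 ± 0.14 with vehicle and 0.17 ± 0.15 with PTH (edgeR, adjusted p = 0.0837 and 0.393). Of the calls with vehicle, *Arrdc2* was lost without the second WT library with vehicle (edgeR, adjusted p = 0.0541) and *Arrb2* without the second Y428F library with vehicle (edgeR, adjusted p = 0.0526). *Arrdc4* was called without the first Y428F library with vehicle, at -0.64 (edgeR, adjusted p = 0.0461), and was -0.26 without the second. In the comparison with PTH, leaving out 1 library gave 0.06 to 0.38 for *Arrdc1* and 0.06 to 0.22 for *Arrb2*, none of them called. *Arrdc1* was called higher with vehicle with library totals, at 0.37 (edgeR, adjusted p = 0.0407), and without the first WT library with PTH, at 0.32 (edgeR, adjusted p = 0.0469).

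**Figure D3:**
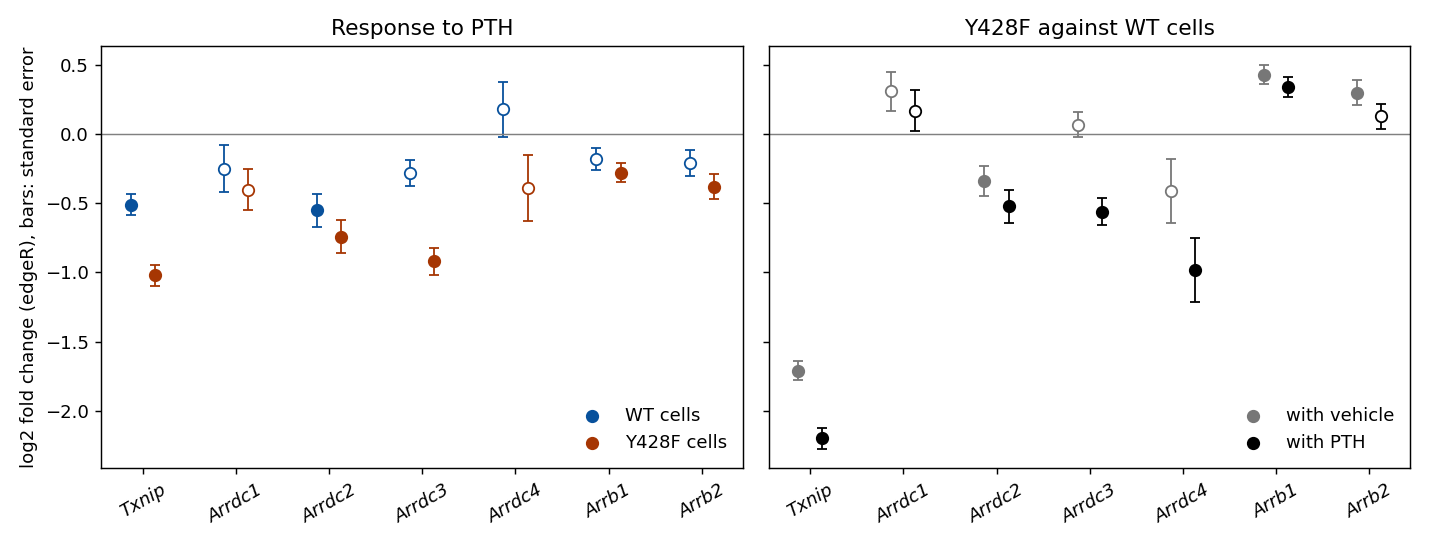
Log2 fold changes from edgeR, with standard errors derived from its F statistic, for the response to PTH in each line (left). The right side shows Y428F against WT cells at each treatment. Filled points passed an adjusted p under 0.05 and open points did not. *Txnip* has the lowest values on the right, -1.71 and -2.20, and *Arrb1* the highest, 0.43 and 0.34.

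The third question was whether the responses to PTH differed between the lines. Over all genes, 0.243% had a lower and 0.17% a higher response in Y428F cells. Among the 7 genes, *Txnip* and *Arrdc3* had a lower one and the other 5 were not called. The difference was -0.64 ± 0.14 on the log2 scale for *Arrdc3*, which earlier results had named. For *Txnip* it was -0.49 ± 0.1 (edgeR, adjusted p = 0.0299). Both values are descriptions, since the members were chosen with their fold changes known. These calls were close to the threshold. With 1 library left out, *Arrdc3* lost its call in 11 of 12 fits, with differences from -0.7 to -0.59, and *Txnip* in 8 of 12, with differences from -0.55 to -0.43 and adjusted p from 0.0231 to 0.11. With library totals, and with the replicate number as a block over all libraries or within each line, the *Arrdc3* difference was not called. Over the 7 alternative fits that kept every library, it ranged from -0.64 to -0.62. The differences of the other members were -0.56 ± 0.33 for *Arrdc4* (-0.77 to -0.35 with 1 library left out), -0.18 ± 0.16 for *Arrdc2*, -0.17 ± 0.13 for *Arrb2*, -0.14 ± 0.21 for *Arrdc1* and -0.09 ± 0.1 for *Arrb1*. With 1 library left out, they ranged from -0.23 to -0.08 for *Arrb2*, from -0.26 to 0.07 for *Arrdc1* and from -0.15 to -0.02 for *Arrb1*.

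The genes whose pattern over the 12 libraries was most like that of a member were named where the member's group means spanned at least 1 on the log2 scale. *Txnip* spanned 2.72, and the most alike of 11218 genes were *Zbtb4*, *Zfp467* and *Ccn5*, with root mean square differences of 0.16, 0.165 and 0.189 in centred log2 CPM. *Zfp467*, a zinc finger gene studied in BMSC fate and PTH signaling, had 57 ± 3.7 and 41.4 ± 0.82 CPM in WT cells with vehicle and PTH, and 15.7 ± 0.888 and 9.66 ± 1.72 CPM in Y428F cells. *Zbtb4* went from 46.6 ± 3.34 to 8.24 ± 0.614 CPM between WT cells with vehicle and Y428F cells with PTH, and *Ccn5*, a matricellular gene, from 54 ± 7.58 to 10.4 ± 1.59 CPM. *Arrdc2* spanned 1.06, and its most alike genes were *Synpo*, *Harbi1* and *Tfcp2*, with differences of 0.072, 0.078 and 0.095. *Synpo*, which encodes an actin-associated protein, had 146.6 ± 4.9 and 99 ± 4.82 CPM in WT cells and 121.5 ± 2.1 and 70.9 ± 7.02 CPM in Y428F cells, with vehicle and PTH. The other 5 members spanned less than 1.

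**Figure D4:**
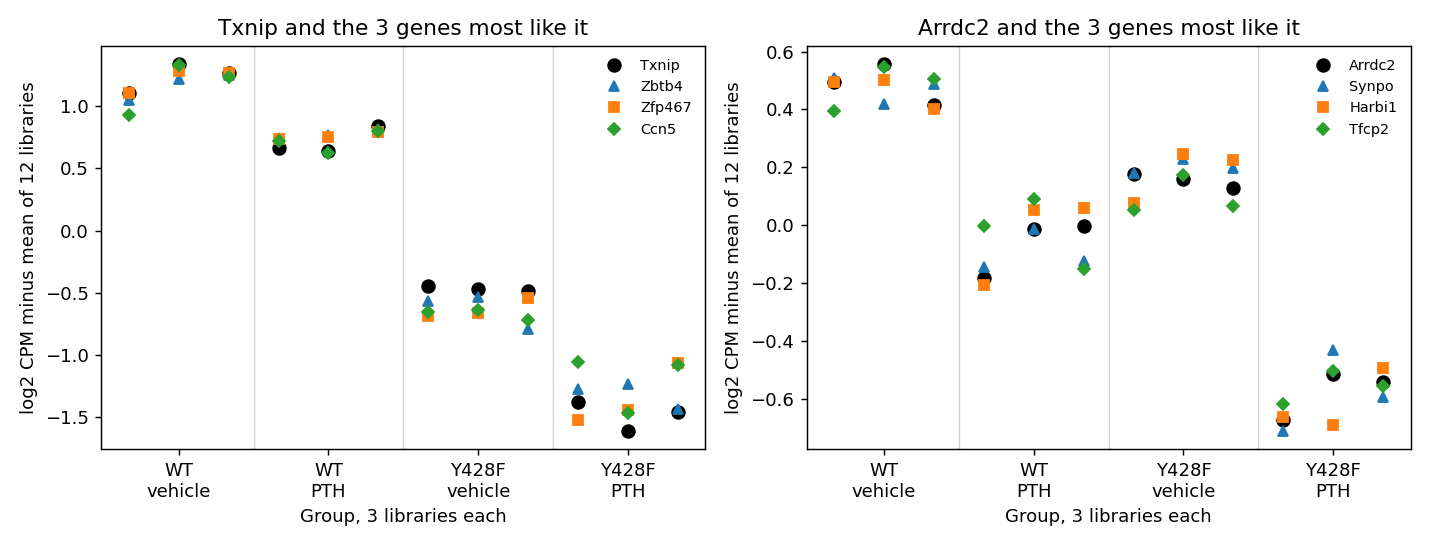
Log2 CPM of *Txnip* (left) and *Arrdc2* (right) with the 3 genes most like each, minus each gene's mean over the 12 libraries; each point is 1 library. The *Txnip* set steps down from WT cells with vehicle to Y428F cells with PTH, whereas *Arrdc2* itself is higher in Y428F cells with vehicle than in WT cells with PTH.

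Genes related to arrestins or to *Txnip* by function, structure or regulation, not all of which act with arrestins, were then described from 8 lists. Their counts stand beside the shares of all genes tested, which were 6.88% higher and 4.91% lower with PTH in WT cells, and 22.4% higher and 22.7% lower in Y428F cells with vehicle, and nothing particular to a list is read from them. Of the 8 NEDD4-family ligases tested, the partners of alpha-arrestins, 2 rose with PTH in WT cells and none fell, with a list median of 0.11. *Smurf1* rose from 88 ± 12 to 109.8 ± 6.52 CPM (log2 0.33, edgeR adjusted p = 0.0278) and *Smurf2* from 87 ± 4.06 to 103.4 ± 7.24 CPM (log2 0.26, edgeR adjusted p = 0.0246), and both rose in Y428F cells as well. In Y428F cells 4 ligases were higher and 2 lower with vehicle, beside 22.4% and 22.7% of all genes, and as many with PTH, beside 22.8% and 23%. *Nedd4l* was higher at 54.3 ± 3.3 against 32.8 ± 2.01 CPM, *Wwp1* at 44.9 ± 2.46 against 30.8 ± 0.463 CPM, and *Hecw2* at 3.06 ± 0.918 against 1.11 ± 0.177 CPM. *Nedd4*, the most abundant, was lower at 1420 ± 19 against 1731 ± 155.8 CPM.

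Of the thioredoxin system, whose proteins TXNIP binds or which reduce them, all 5 genes were higher in Y428F cells with vehicle, beside 22.4% of all genes, with a median of 0.41 on the log2 scale. With PTH 3 of the 5 were higher, beside 22.8% of all genes, and *Txnrd3* (log2 -0.01, edgeR adjusted p = 0.964) and *Txnrd2* (log2 0.33, edgeR adjusted p = 0.078) were not called. *Txnrd1*, a thioredoxin reductase, had 200.5 ± 11.2 CPM against 109.4 ± 5.29 (log2 0.87, edgeR adjusted p = 3.21e-10), and thioredoxin, *Txn1*, 318.2 ± 8.74 against 220.6 ± 29.2 CPM. With PTH in WT cells, *Txnrd1* and *Txnrd3* rose and the other 3 were not called, and in Y428F cells *Txnrd1* rose (log2 0.28, edgeR adjusted p = 0.00422) and the other 4 were not called. Of the 3 glucose transporters tested, *Slc2a1*, which encodes GLUT1, rose with PTH from 60 ± 1.9 to 90.1 ± 7.72 CPM in WT cells (log2 0.59, edgeR adjusted p = 0.000154) and from 73.1 ± 2.95 to 89.7 ± 3.45 CPM in Y428F cells (log2 0.3, edgeR adjusted p = 0.00371). With vehicle, *Slc2a1* was higher in Y428F than in WT cells (log2 0.28, edgeR adjusted p = 0.00113). *Slc2a8* was lower in Y428F cells with vehicle, at 18.9 ± 0.908 against 35.6 ± 0.715 CPM, and fell with PTH in Y428F cells (log2 -0.37, edgeR adjusted p = 0.00666). Of the factors that act on *Txnip*, *Mlxip*, which encodes MondoA, was not called in any of the 5 comparisons, *Mlx* was higher in Y428F cells with vehicle (log2 0.23, edgeR adjusted p = 0.0162), and *Mlxipl*, which encodes ChREBP, had 0 counts in every library.

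Of the receptor kinases that prepare receptors for beta-arrestins, none of the 4 tested in WT cells and none of the 5 in Y428F cells was called with PTH. *Grk6* and *Grk2* were higher in Y428F cells with vehicle, *Grk6* at 81.8 ± 3.2 against 66.9 ± 4.63 CPM and *Grk2* at 82.5 ± 1.76 against 73.6 ± 6.34 CPM. Between the lines with PTH, *Grk6* was higher in Y428F cells (log2 0.22, edgeR adjusted p = 0.00525) and *Grk2* was not called (log2 0.06, edgeR adjusted p = 0.467). None of the 8 clathrin and AP-2 genes was called with PTH in either line, where 6.88% of all genes rose and 4.91% fell in WT cells and 6.61% rose and 5.78% fell in Y428F cells. Between the lines, 5 were higher and 1 lower in Y428F cells with vehicle, beside 22.4% and 22.7% of all genes, and 4 were higher and none lower with PTH, beside 22.8% and 23%. The clathrin heavy chain, *Cltc*, had 527 ± 17.9 against 407.6 ± 29.9 CPM, *Cltb* 57.3 ± 1.38 against 40.7 ± 4.64, *Ap2m1* 371.5 ± 5.95 against 279.9 ± 7.43 and *Ap2b1* 279.6 ± 4.09 against 213 ± 17.4 CPM. Of the arrestin-fold relatives, the retromer gene *Vps26a* rose with PTH in WT cells (log2 0.27, edgeR adjusted p = 0.0149) and in Y428F cells (log2 0.32, edgeR adjusted p = 0.00171), *Vps26c*, *Rgp1* and *Vps26b* were lower in Y428F cells with vehicle, and *Arrdc5* had 0 counts in every library.

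The last list held genes known to respond to glucocorticoids or FOXO factors. Of 7 tested, 1 rose and 2 fell with PTH in WT cells, and 1 was higher and 5 lower in Y428F cells with vehicle. Of all genes, 6.88% rose and 4.91% fell in the former comparison, and 22.4% were higher and 22.7% lower in the latter. *Pik3ip1*, an inhibitor of PI3-kinase, fell with PTH in WT cells from 54 ± 5.85 to 39.2 ± 1.06 CPM (log2 -0.45, edgeR adjusted p = 0.00366) and was lower in Y428F cells with vehicle, at 19.9 ± 1.24 CPM (log2 -1.44, edgeR adjusted p = 1.15e-11). *Sesn1* fell with PTH in WT cells from 50.2 ± 2.87 to 41.6 ± 0.631 CPM. Both genes also fell with PTH in Y428F cells, *Pik3ip1* by -0.45 (edgeR, adjusted p = 0.00205) and *Sesn1* by -0.40 (edgeR, adjusted p = 0.00062) on the log2 scale. *Tsc22d3* fell there too (log2 -0.28, edgeR adjusted p = 0.023). In that comparison 1 of the 7 rose and 3 fell, beside 6.61% and 5.78% of all genes. Between the lines with PTH, 1 was higher and 4 lower in Y428F cells, beside 22.8% and 23%. *Klf9*, a glucocorticoid-induced factor, rose with PTH in both lines. In WT cells its level was 33.8 ± 3.39 CPM without and 46 ± 0.549 CPM with the hormone, and in Y428F cells 25.1 ± 1.15 and 44.5 ± 3.87 CPM. *Fkbp5* was higher in Y428F cells with vehicle, at 45.7 ± 0.235 against 22.9 ± 1.6 CPM, and *Ccng2* lower, at 64.5 ± 1.21 against 102.4 ± 3.68 CPM. No gene of the 8 lists had a call for the difference in response between the lines.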

How the data were processed

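Bulk RNA-Seq of 12 libraries was used. The authors mapped reads with STAR 2.7.10b to GRCm39 using GENCODE's basic gene set, and deposited unscaled RSEM expected counts per gene. After rounding, edgeR 4.0.16 (R 4.3.3) was used with TMM and its quasi-likelihood test on genes whose counts summed to 10 or more, 15583 for the 6 WT libraries and 17691 for all 12, with Benjamini-Hochberg adjustment over all of these. The PTH response of WT cells used the WT libraries and the other comparisons all 12. Standard errors of log2 fold changes were derived as the absolute log2 fold change divided by the square root of the F statistic. Groups came from the library titles. Names, positions and exon lengths came from GENCODE vM39, to which 56236 of 56980 identifiers were matched.

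The members and lists were chosen with earlier results of these data known. Named were the 7 members and, from each list, the gene with the highest mean CPM and up to 3 called genes with the largest log2 fold change in WT cells with PTH and in Y428F against WT cells with vehicle. *Arrdc5* and *Mlxipl*, at 0 counts, were named after their values were seen, as was *Tsc22d3*, for its fall with PTH in Y428F cells. Likeness was judged among genes averaging 2 CPM or more. Alternatives were DESeq2 1.42.0 and its size factors, library totals, other count filters, other libraries in the fit, the replicate number as a block, and each library left out. The fit of all 12 libraries was tried on simulated counts, with changes placed only in Y428F cells with PTH. The fit of the WT libraries and DESeq2 were not tried on them. The promoter window before the annotated 5′ end and the motif CACGAG were chosen after the first matches and the *Txnip* sequence had been seen, and the window used first is given beside it.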

Additional observations from a re-analysis of the deposited data

Results flagged for a closer look

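The responses of 2 genes to PTH differed between the lines by an interaction term in edgeR past an adjusted p of 0.05. *Arrdc3* responded more in Y428F cells, with a difference of -0.64 on the log2 scale, and *Txnip* likewise, with a difference of -0.49. In each line, the 3 libraries with PTH lay below the 3 with vehicle for both genes. The calls were lost in most fits that left out 1 library.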

How the results depend on the processing

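Apart from fits without a library, 231 of the 238 values of single members kept their direction and their side of the threshold, 4 gained a call and 3 lost one, all 3 of the latter for the difference in response of *Arrdc3* (with library totals and with either replicate block). The number of the 7 genes called for the difference in response went from 2 to 1 with library totals, to 1 with the replicate block and to 1 with the replicate block within line, and the cause was not tested. With 1 library left out, it ranged from 0 to 2, and the number called for PTH in WT cells from 1 to 3. In these fits 350 of 378 values of single members kept their direction and side, and the *Arrdc1* difference in response ranged from -0.26 to 0.07, the latter without the first WT library with PTH. Over all genes, 73 were called for the difference in response, against 124 with DESeq2, 216 with no filter on low counts and 24 to 89 without a library. For PTH in WT cells 1837 were called, against 905 to 2211 without a library, and in Y428F cells 2192, against 1435 to 2515. In WT cells with PTH, *Arrdc1* and *Arrdc2* shared rank 4 per kb of exon, both at 2.16 CPM per kb. Per kb of the longest transcript *Arrdc2* ranked 5, with 3.08 ± 0.215 against 3.15 ± 0.736 for *Arrdc1*, within their spread. No shared deviation was seen between libraries with the same replicate number: over 18 same-number pairs the mean correlation of deviations was 0.0019 (range -0.0311 to 0.0371). That cannot show whether the cultures were paired, which the labels do not say. With the replicate block 1643 genes were called for PTH in WT cells. At 26 to 63 counts per library, *Arrdc4* had the largest standard errors of the 7 genes.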
